A study of Homo sapiens with 10 samples.

Results

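The 41 genes described here are the protein-coding genes named PSMA, PSMB, PSMC, PSMD, PSME, PSMF or PSMG with a number alone after the letters, out of 14054 genes in the count table. Membership follows from gene names and uses no measured value, though this gene family was picked for description with earlier results of these data known. They comprise 7 alpha ring genes, 3 structural and 3 catalytic beta ring genes, 5 ATPase and 11 non-ATPase genes of the 19S cap, 3 chaperones of 19S assembly, 4 chaperones of 20S assembly, 4 activators and PSMF1. The immunoproteasome genes PSMB8, PSMB9 and PSMB10, with PSMB3, PSMC1, PSMA8 and PSMB11, were not analysed here, so the immunoproteasome could not be set against the constitutive core. Of the identifiers in the table, 400 had no symbol in the annotation, so a copy of a gene under another identifier would not be seen.

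The proteasome is the cell's main machine for degrading proteins tagged with ubiquitin. A barrel-shaped 20S core, built from rings of alpha and beta subunits, holds the proteolytic sites, and the 19S cap recognises, unfolds and feeds in the substrate. Assembly chaperones guide the building of both parts, and activators such as PA28 can take the place of the cap. In fibroblasts, as in other cells, transcription of the subunit genes is known to be raised together when proteasome capacity falls short, through the transcription factor NFE2L1 acting on antioxidant response elements, and interferon is known to induce the immunoproteasome subunits and the PA28 genes.

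The series holds 10 RNA libraries of MRC5, an established human lung fibroblast line, numbered here as in their titles. Stretch medium, given to 5 of them, was conditioned by A549 cells under mechanical stretch, and static medium, given to the other 5, by A549 cells that were not stretched. A549 is a human lung adenocarcinoma line used as a model of alveolar epithelium, and the series asks whether stretched epithelial cells act on fibroblasts through what they secrete. All 10 received conditioned medium, so no library shows MRC5 cells in fresh medium. Exposure lasted 24 hours by the sample descriptions and 6 hours by the series design. Nothing in the labels states that the 5 libraries of a medium were grown separately, and the spread behind each p-value may therefore be only technical.

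Libraries held 4231653 to 8455073 counts. Of 14 fibroblast markers all 14 were tested, and their summed level was 15400 to 20010 CPM with stretch medium and 17090 to 18880 CPM with static medium (CPM, depth-scaled counts on TMM-scaled library sizes), with 10 log2 fold changes above 0 and 4 below. COL1A1 and SPARC were higher at an unadjusted p under 0.05, and VIM, the vimentin gene, had the fold change furthest from 0, at -0.38 ± 0.20 (SE; adjusted p = 0.344), with 1580 to 4328 CPM with stretch medium and 4057 to 5073 CPM with static medium. Of 20 markers of A549 cells and lung epithelium, 10 were in the table and 7 were tested, with a summed level of 45.5 to 55.9 CPM with stretch medium and 41.2 to 52.5 CPM with static medium. The epithelial cadherin gene CDH1 had 0 counts in 5 libraries and reached at most 0.522 CPM. Of 10 haematopoietic markers 5 were in the table, of which CD68 made up nearly all of the summed 184 to 236 CPM with stretch medium and 197 to 212 CPM with static medium. Of 8 endothelial markers 5 were in the table, summing to 52.3 to 72.8 and 58.9 to 71.1 CPM. TEK made up most of the endothelial sum, at 43.1 to 59.3 CPM with stretch medium and 49.0 to 59.7 CPM with static medium. Of these 3 lists of other cells' markers, KRT18 had an unadjusted p under 0.05, at 14.6 ± 2.35 CPM with stretch medium and 11.2 ± 2.29 CPM with static medium and a log2 fold change of 0.40 ± 0.18 (adjusted p = 0.276). In such bulk libraries fewer cells of a type and less RNA per cell cannot be told apart, and the part of these markers in the results was not tested.

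No proteasome gene separated the groups. All 41 members passed the filter on low counts, and 0 of them reached an adjusted p of 0.05 in edgeR's quasi-likelihood test, as did 0 of the 10968 genes tested (0%). Log2 fold changes below are stretch minus static medium. Of the members, 22 lay above 0 and 19 below, with a median of 0.037, against a median of 0.00035 over all genes tested, of which 5490 lay above 0. For 37 of 41 the fold change was under 0.3 in size on the log2 scale. At an unadjusted p under 0.05 there were 9 members, 5 higher and 4 lower with stretch medium. Among all genes 16.4% reached that level, 8.08% higher and 8.37% lower, so that the members' 22.0% lay near the background. In 0 members did the 5 stretch libraries lie wholly above or below the 5 static libraries, against 3.72% of all genes, 1.74% higher and 1.98% lower. DESeq2 called 1 member, PSMG2, as lower and 0 as higher, against 2.84% of the 9690 genes it gave an adjusted p (1.29% higher and 1.55% lower), and limma-voom called 0 members and 0.00912% of genes. The count of 5 higher members was 6 without stretch 4 and 1 to 3 without any other library, and the count of 4 lower members was 2 without static 7 and 3 to 5 without any other.

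**Figure D1:**
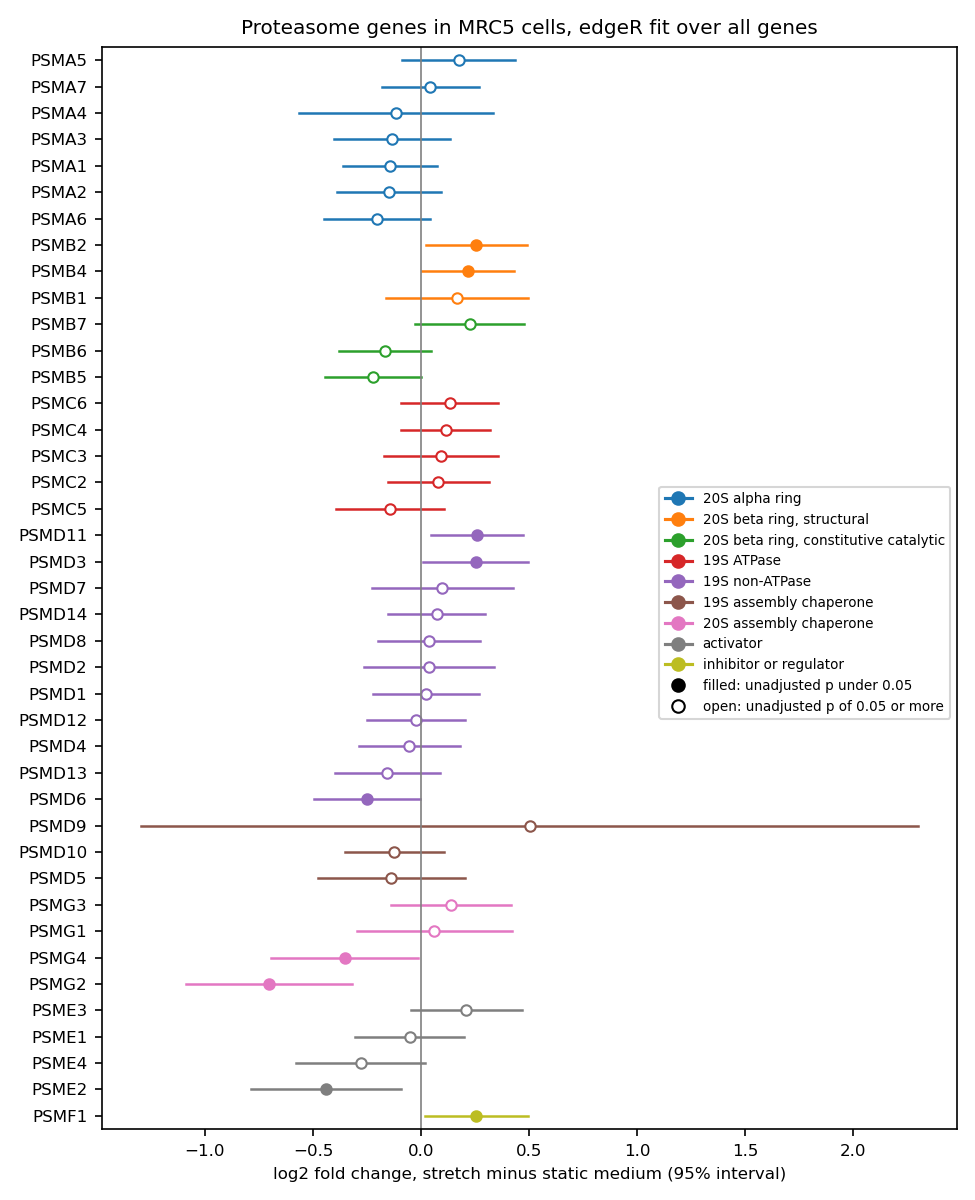
Log2 fold change (stretch minus static medium) of the 41 proteasome genes with 95% intervals from the edgeR fit, grouped and coloured by class. Filled points mark the 9 genes with an unadjusted p under 0.05; 32 intervals span 0, PSMG2 lies furthest to the left at -0.70, and PSMD9 has by far the widest interval.

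Promoter windows from RefSeq (GRCh38.p14; 250 bases before to 50 after a start site) were found for 35 of the 41 members, in 43 windows. The antioxidant response element bound by NFE2L1 and its small Maf partners was searched as TGACNNNGC on both strands. It was present for 13 of 35 members (37.1%) and for 16.1% of 27305 genes with a window, whether tested here or not. Counted by window, it was present in 13 of the 43 windows of members and in 13.4% of all 35116 windows. The 13 members with the letters had a median log2 fold change of -0.053, with 5 above 0 and 8 below, and the 22 without them a median of 0.055, with 13 above and 9 below. CCAAT, the box bound by NF-Y, was searched on both strands in the same windows, and matches of both motifs may share letters at their ends. It was present for 17 members (48.6%), against 39.7% of all genes. The members that held it had a median of 0.062 and those that did not -0.038. A match is a description of letters, not a site of binding.

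Of the 9 members with an unadjusted p under 0.05, PSMG2, PSME2 and PSMD3 held TGACNNNGC, and the 250 bases before their start sites are shown for that reason, 5′ to 3′ on the gene's strand, with the match in capitals. In PSMG2 it began 39 bases before the start in the upstream one of its windows (chr18:12658488-12658737, plus strand). The other window, further downstream (chr18:12702792-12703041), held no match. Which of the PSMG2 starts these cells used was not tested. In PSME2 (chr14:24146611-24146860, minus strand) it began 175 bases before the start. In PSMD3 (chr17:39980557-39980806, plus strand) it began 37 bases before the start, and another match began 33 bases after it, outside the bases shown. PSMG2 and PSME2 were the members with the lowest estimates and PSMD3 one of the 5 higher ones, so these letters were found on both sides.
PSMG2: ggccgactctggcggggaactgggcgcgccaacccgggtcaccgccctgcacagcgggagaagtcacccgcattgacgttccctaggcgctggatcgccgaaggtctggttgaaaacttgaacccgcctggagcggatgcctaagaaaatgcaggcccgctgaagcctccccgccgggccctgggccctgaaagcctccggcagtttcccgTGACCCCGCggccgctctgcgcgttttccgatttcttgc
PSME2: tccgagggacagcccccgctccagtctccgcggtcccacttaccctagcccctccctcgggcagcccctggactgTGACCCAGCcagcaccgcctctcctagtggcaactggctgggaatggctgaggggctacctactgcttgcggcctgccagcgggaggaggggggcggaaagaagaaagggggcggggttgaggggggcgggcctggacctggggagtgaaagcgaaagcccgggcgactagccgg
PSMD3: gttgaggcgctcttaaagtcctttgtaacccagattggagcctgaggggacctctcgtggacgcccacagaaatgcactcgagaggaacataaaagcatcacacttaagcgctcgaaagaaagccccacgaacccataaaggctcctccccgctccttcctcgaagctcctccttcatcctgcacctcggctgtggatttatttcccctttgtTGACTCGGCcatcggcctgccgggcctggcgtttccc

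Among the catalytic subunits of the core, PSMB5 and PSMB6 averaged less and PSMB7 more with stretch medium, and the intervals of all 3 spanned 0. PSMB5 carries the chymotrypsin-like activity that proteasome inhibitors mainly target. In the order stretch 2, 4, 6, 8 and 10 and static 1, 3, 5, 7 and 9, which is kept below, it had 170.4, 212, 202, 216 and 202 CPM with stretch medium, against 208, 226, 217, 272 and 246 CPM with static medium. The stretch values reached from 170.4 in stretch 2 to 216 in stretch 8, and the lowest static value, 208 in static 1, lay inside that range. Its log2 fold change was -0.22 ± 0.11 (SE; 95% interval -0.45 to 0.00046; adjusted p = 0.305).

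PSMB6, the caspase-like subunit (chromosome 17, 4796144 to 4798503), had 207, 194, 195, 222 and 179 CPM with stretch medium, against 206, 202, 241, 245 and 226 CPM with static medium. Its groups overlapped through stretch 2 and 8, the log2 fold change was -0.17 ± 0.10, and the adjusted p was 0.423. PSMB7, the trypsin-like subunit, had 346, 275, 399.8, 324 and 296 CPM with stretch medium, against 285, 311, 264, 232 and 312 CPM with static medium. Stretch 6 was the highest library and static 7 the lowest, and the log2 fold change was 0.22 ± 0.12 (-0.027 to 0.48; adjusted p = 0.361). The log2 difference of PSMB7 minus PSMB5 in each library, with its mean over all 10 subtracted, was 0.22 ± 0.29 with stretch medium and -0.22 ± 0.28 with static medium (SD, n = 5 each). Stretch 4, at -0.11, lay among the static libraries, and static 7 stood lowest at -0.71. This difference was not tested.

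The structural beta subunits PSMB1, PSMB2 and PSMB4, which line the inner rings of the core without proteolytic sites, all averaged higher with stretch medium, at a median log2 fold change of 0.22. PSMB2 (chromosome 1, 35599544 to 35641844) had 1185, 1118, 1207, 977 and 1382 CPM with stretch medium, against 1090.0, 967, 871, 1104 and 882 CPM with static medium. Stretch 10 was the highest library, while stretch 8 lay among the static values. The log2 fold change was 0.26 ± 0.11 (0.023 to 0.49; adjusted p = 0.267). PSMB4 (chromosome 1, 151399534 to 151401944) had 802, 654, 892, 792 and 832 CPM with stretch medium, against 684, 756, 666, 627 and 684 CPM with static medium, with stretch 4 inside the static range. Its log2 fold change was 0.22 ± 0.10 (adjusted p = 0.295). PSMB1 ranged more widely, at 224, 167, 328, 247 and 211 CPM with stretch medium, against 234, 223, 202, 159 and 232 CPM with static medium. Stretch 6 was its highest and static 7 its lowest library, and the estimate of 0.17 ± 0.16 (adjusted p = 0.624) became -0.066 with both left out.

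The alpha ring forms the gate through which substrates enter the core. Of its 7 genes 5 had a log2 fold change below 0 and 2 above, from -0.20 for PSMA6 to 0.17 for PSMA5, and 0 had an unadjusted p under 0.05. PSMA6 had 289, 349.5, 334, 342 and 358 CPM with stretch medium, against 349, 374, 320.2, 487 and 393 CPM with static medium. Static 7 stood above all others, and static 1 and 5 lay within the stretch range. The adjusted p was 0.40, and without static 7 the log2 fold change was -0.10. PSMA5 had 98.2, 93.3, 112, 107 and 96.8 CPM with stretch medium, against 64.4, 94.8, 86.6, 101 and 102 CPM with static medium, and here static 1 lay below all others (adjusted p = 0.499). Without static 1 its log2 fold change was 0.076. PSMA4 had the widest spread of the ring in stretch libraries, with 118, 166, 57.6, 110.5 and 159.7 CPM with stretch medium, against 122, 137, 128, 169 and 104 CPM with static medium. Its coefficient of variation (CV, the SD as a percentage of the mean) was 35.8% with stretch and 18.2% with static medium, and the log2 fold change was -0.12 ± 0.21. The other ring genes lay between -0.15 and 0.043. PSMA1 averaged 103 ± 7.65 CPM with stretch medium and 114 ± 10.7 CPM with static medium, PSMA2 138 ± 21.5 CPM with stretch medium and 153 ± 11.6 CPM with static medium and PSMA3 23.1 ± 1.27 CPM with stretch medium and 25.4 ± 3.01 CPM with static medium (SD, n = 5 each). PSMA7 averaged 512 ± 33.6 CPM with stretch medium and 497 ± 68.8 CPM with static medium, where static 9 stood above the rest at 614.6 CPM.

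Averaged over its 13 genes on the log scale, the 20S core differed by less than the spread between libraries. The mean of log2 CPM, each gene centred on its mean over 10 libraries, was -0.0044 ± 0.038 with stretch medium and 0.0044 ± 0.062 with static medium (SD, n = 5 each). The 16 genes of the 19S cap gave 0.017 ± 0.052 and -0.017 ± 0.029, and all 41 members gave -0.0037 ± 0.041 and 0.0037 ± 0.039. In the mean of all members PSMD9 weighs most, with centred values from -3.44 in stretch 8 to 2.69 in static 5. The summed CPM, in which genes with high counts weigh most, lay on the other side for the core, at 4266 ± 256 CPM with stretch medium and 4012 ± 169 CPM with static medium, and for all members, at 8272 ± 342 and 7859 ± 255 CPM. These means and sums are descriptions and were not tested.

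In the 19S cap, the ATPases form the ring that unfolds substrates and opens the gate. The 5 analysed lay between -0.14 for PSMC5 and 0.13 for PSMC6, with 4 above 0 and 0 at an unadjusted p under 0.05. PSMC5 had 52.3, 54.9, 56.7, 75.3 and 61.1 CPM with stretch medium, against 69, 59.8, 65.2, 71.4 and 67.4 CPM with static medium, with 3 stretch libraries below every static library and stretch 8 above them all (adjusted p = 0.569). PSMC6 had 240.3, 266, 208, 257 and 286 CPM with stretch medium, against 248, 248, 207, 226 and 217 CPM with static medium, and all but static 5 of the static libraries lay within the stretch range (adjusted p = 0.561). PSMC2 averaged 109 ± 9.11 CPM with stretch medium and 104 ± 13.4 CPM with static medium, PSMC3 216 ± 33.3 CPM with stretch medium and 203 ± 29.8 CPM with static medium and PSMC4 166 ± 13.2 CPM with stretch medium and 154 ± 10.1 CPM with static medium (SD, n = 5 each), and their groups overlapped.

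Among the 11 non-ATPase genes of the cap, 7 lay above 0 and 4 below, and the lid genes PSMD11, PSMD3 and PSMD6 had an unadjusted p under 0.05. PSMD11 encodes a lid subunit that holds cap and core together (chromosome 17, 32444261 to 32483318). It had 420.2, 419, 444, 376 and 471 CPM with stretch medium, against 322, 372, 329, 353 and 403 CPM with static medium. All stretch libraries but stretch 8 lay above every static library, and the log2 fold change was 0.26 ± 0.10 (0.047 to 0.47; adjusted p = 0.223). PSMD3 (chromosome 17, 39980797 to 39997960), another lid subunit, had 137, 118, 159.7, 156 and 126 CPM with stretch medium, against 126, 126, 111, 98.7 and 124 CPM with static medium, with stretch 4 inside the static range. Its log2 fold change was 0.25 ± 0.11 (adjusted p = 0.285).

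PSMD6, also of the lid (chromosome 3, 64010549 to 64024010), lay on the other side, with 104, 99.1, 80.9, 91.6 and 85 CPM with stretch medium, against 106, 87.6, 116, 113 and 125 CPM with static medium. All static libraries but static 3 lay above every stretch library. The log2 fold change was -0.25 ± 0.12 (-0.49 to -0.0061; adjusted p = 0.293). The other 8 genes, among them the deubiquitinase PSMD14, the ubiquitin receptor PSMD4 and the large scaffold subunits PSMD1 and PSMD2, lay between -0.16 and 0.098, each with an interval that spanned 0. PSMD14, which removes ubiquitin chains as substrates enter, averaged 301 ± 32.5 CPM with stretch medium and 286 ± 28 CPM with static medium, and its partner in the lid, PSMD7, 154 ± 26.3 CPM with stretch medium and 144 ± 31.2 CPM with static medium (SD, n = 5 each). The ubiquitin receptor PSMD4 averaged 87.2 ± 8.68 CPM with stretch medium and 90.7 ± 9.95 CPM with static medium. The lid subunits PSMD8, PSMD12 and PSMD13 had log2 fold changes of 0.038 ± 0.11, -0.023 ± 0.11 and -0.16 ± 0.11. PSMD2, which holds ubiquitin-like domains of shuttle proteins, averaged 245 ± 50.2 CPM with stretch medium and 239 ± 37.9 CPM with static medium. PSMD1 had a CV of 16.6% over stretch and 4.83% over static libraries, with stretch 2 lowest at 142 CPM and stretch 10 highest at 229 CPM.

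**Figure D2:**
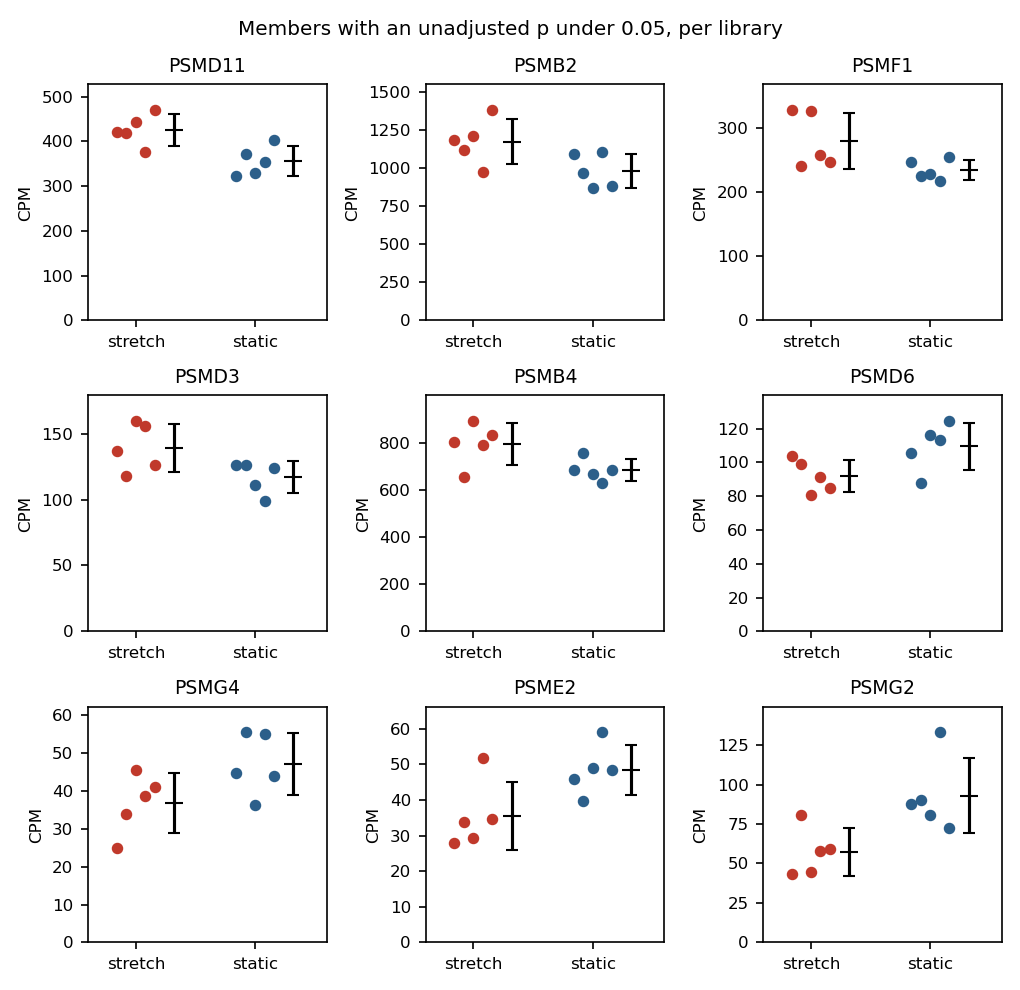
CPM per library of the 9 proteasome genes with an unadjusted p under 0.05, ordered from the highest to the lowest log2 fold change, with stretch medium on the left and static medium on the right of each panel. Points are the 5 libraries of a group and bars the mean ± SD; the groups overlap in all 9 panels, and in PSMD11, PSMB2, PSMD3, PSMB4, PSME2 and PSMG2 only 1 stretch library lies within the static range.

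The chaperones of 20S assembly held the member with the smallest p-value. PSMG2 pairs with PSMG1 into a heterodimer that assembles the alpha ring and keeps it from dimerising early, and PSMG3 pairs with PSMG4 for the same ring. PSMG2 (chromosome 18, 12658043 to 12725740) had 43.5, 80.8, 44.3, 57.9 and 59.1 CPM with stretch medium, against 87.5, 90.1, 80.7, 133 and 72.6 CPM with static medium. Stretch 4 lay above static 9 and beside static 5, the other stretch libraries lay below all static ones, and static 7 stood far above its group. Means were 57.1 ± 15.2 CPM with stretch medium and 92.8 ± 23.7 CPM with static medium (SD, n = 5 each), or -0.70 ± 0.18 on the log2 scale (-1.09 to -0.32). The adjusted p was 0.115 in edgeR, 0.0186 in DESeq2 and 0.12 in limma-voom. In edgeR it was 0.0480 without stretch 4, and up to 0.234 without another library. With stretch 6 and static 7 both left out, the log2 fold change was -0.45 and the adjusted p 0.345.

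PSMG2 overlaps CEP76 and SPIRE1 on the opposite strand, and the sources used here do not say whether counting used strand. CEP76 had a log2 fold change of 0.038 and SPIRE1 of 0.014. Over the 10 libraries CEP76 ranged from 15.8 to 26.8 CPM and SPIRE1 from 77.3 to 120 CPM. The partner PSMG1 had 76.9, 62.9, 39.6, 58.1 and 76.2 CPM with stretch medium, against 66.6, 75.1, 50.9, 57.4 and 49.4 CPM with static medium, or 0.062 ± 0.17 (adjusted p = 0.89). The log2 difference of PSMG2 minus PSMG1, centred over 10 libraries, was -0.38 ± 0.47 with stretch medium and 0.38 ± 0.37 with static medium (SD, n = 5 each; not tested).

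PSMG4 (chromosome 6, 3231403 to 3303373) had 24.9, 33.9, 45.5, 38.8 and 41 CPM with stretch medium, against 44.8, 55.7, 36.3, 55.1 and 44 CPM with static medium. Stretch 2 was the lowest library, and static 1, 5 and 9 lay below stretch 6, with an estimate of -0.35 ± 0.16 (-0.69 to -0.015; adjusted p = 0.285). TUBB2B, which the annotation places across PSMG4 on the opposite strand, had a log2 fold change of -0.33. PSMG3 had 34.4, 39.5, 47.6, 39.3 and 46.8 CPM with stretch medium, against 33.2, 33.1, 41.2, 36.2 and 45.1 CPM with static medium, or 0.14 ± 0.13 on the log2 scale (adjusted p = 0.629).

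The chaperones of 19S assembly, PSMD5, PSMD9 and PSMD10, attach to ATPases before the cap closes. PSMD9 (chromosome 12, 121888731 to 121918297) was the least stable member. It had 58, 58, 17, 0 and 74 counts with stretch medium, against 2, 13, 143, 21 and 6 counts with static medium, or 13.1, 11.2, 2.34, 0 and 14.9 CPM with stretch medium, against 0.44, 1.53, 22, 2.74 and 0.974 CPM with static medium. Stretch 2, 4 and 10 and static 5 lay at 11.2 CPM or more, and the other 6 libraries at 2.74 CPM or less. The value of 0 in stretch 8, a library of 7724512 counts, allows up to 0.388 CPM by a floor of 3 counts. The log2 fold change of 0.50 had an interval of -1.30 to 2.30 and was 2.38 without static 5, with adjusted p-values of at least 0.220 in every fit that left out a library. CFAP251, which overlaps PSMD9 on the same strand, ranged only from 4.36 to 7.53 CPM over the 10 libraries. PSMD5 had 8.15, 7.7, 9.9, 7.62 and 7.43 CPM with stretch medium, against 8.79, 8.25, 10.6, 8.48 and 8.93 CPM with static medium (adjusted p = 0.707), and PSMD10 a log2 fold change of -0.12 ± 0.11.

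Of the activators, PSME1 and PSME2 encode the PA28 alpha and beta chains, which form a mixed ring and are known to be induced by interferon gamma, PSME3 the nuclear PA28 gamma and PSME4 the large activator PA200. PSME2 (chromosome 14, 24143362 to 24147570) had 27.8, 33.9, 29.4, 51.8 and 34.6 CPM with stretch medium, against 45.9, 39.6, 48.9, 59.1 and 48.4 CPM with static medium. Stretch 8 lay within the static range and the other 4 stretch libraries below it. The log2 fold change was -0.44 ± 0.16 (-0.79 to -0.095; adjusted p = 0.207). Its ring partner PSME1 had 67.7, 52, 75.1, 60.1 and 52.6 CPM with stretch medium, against 64.8, 60.4, 63.3, 63.4 and 67.4 CPM with static medium, or -0.053 ± 0.12 (adjusted p = 0.863), with a CV of 16.1% with stretch and 3.98% with static medium.

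PSME2 and the ubiquitin ligase gene RNF31 overlap on opposite strands, and RNF31 had a log2 fold change of 0.26 with an unadjusted p of 0.0530. PSME3 had 159, 129, 145, 174 and 136 CPM with stretch medium, against 129, 138, 152, 100.5 and 124 CPM with static medium (0.21 ± 0.12; adjusted p = 0.407), and BECN1, which overlaps it on the opposite strand, 0.22. PSME4 had 26, 38.1, 27.1, 41.4 and 30.5 CPM with stretch medium, against 43.1, 39.6, 40.7, 40.1 and 35.2 CPM with static medium, with stretch 2, 6 and 10 below every static library (-0.28 ± 0.14; adjusted p = 0.334). ACYP2, on the opposite strand across PSME4, had a log2 fold change of -0.54 and an unadjusted p of 0.0123. Whether reads were shared between such overlapping genes was not tested.

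PSMF1, which encodes PI31, a protein first described as an inhibitor of the 20S core (chromosome 20, 1113263 to 1189415), had 328, 241, 325, 257 and 246 CPM with stretch medium, against 247, 224, 227, 217 and 255 CPM with static medium. Stretch 2 and 6 stood above all other libraries, stretch 4 and 10 lay within the static range, and stretch 8 just above it. The log2 fold change was 0.26 ± 0.11 (0.017 to 0.49; adjusted p = 0.276).

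Across members, 3 libraries most often stood at an end of the range. Stretch 6 was the highest of the 10 libraries for 10 members and the lowest for 6, static 7 the highest for 7 and the lowest for 8, and stretch 2 the highest for 3 and the lowest for 11. Over all genes tested, stretch 6 was at an end for 29.7%, static 7 for 38.8% and stretch 2 for 25.3%, against 39.0%, 36.6% and 34.1% of the members. With stretch 6 and static 7 both left out, 2 members were higher and 2 lower at an unadjusted p under 0.05, and the median log2 fold change of the members was -0.021. The median CV of the members was 12.5% over stretch and 11.3% over static libraries, and it was larger over stretch libraries for 24 of 41.

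**Figure D3:**
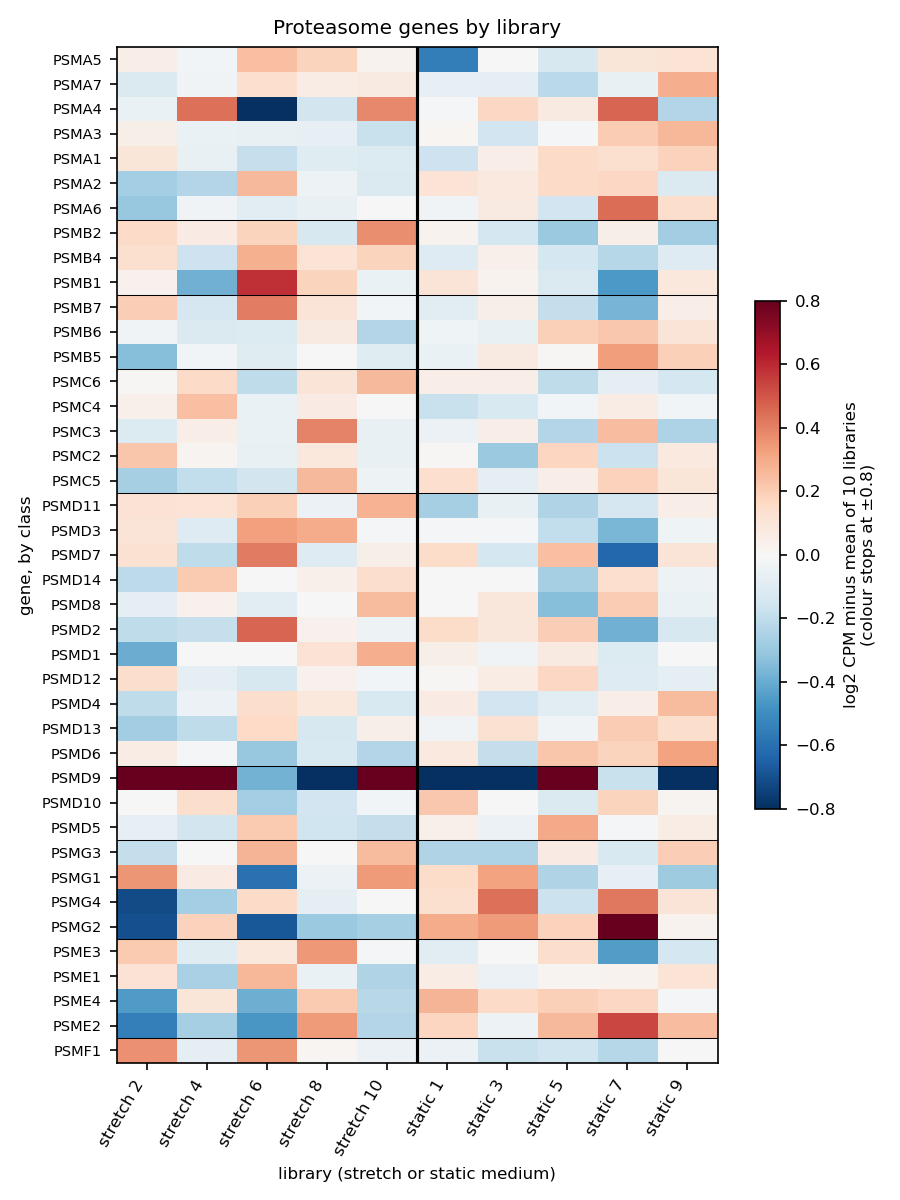
Log2 CPM of each of the 41 proteasome genes (rows, by class) in each library (columns, stretch medium left of the line and static medium right of it), minus the gene's mean over 10 libraries, with the colour scale stopping at 0.8 in size. Red and blue are mixed within the classes of both groups, PSMD9 exceeds the scale in 8 libraries, and stretch 6 and static 7 carry many of the strongest colours.

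**Figure D4:**
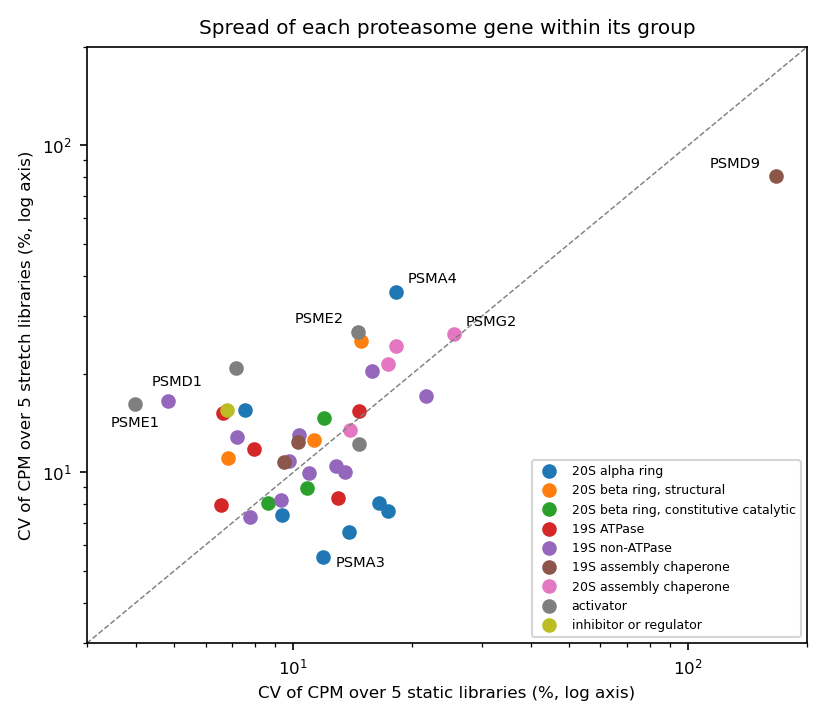
Coefficient of variation of CPM (percent, log axes) of each proteasome gene over 5 static libraries (horizontal) and 5 stretch libraries (vertical), coloured by class, with the dashed line marking equal values. PSMD9 lies far from the rest at 167% over static and 80.6% over stretch libraries, and PSMA4 and PSME2 are the next highest over stretch libraries with PSMG2 close to them.

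Genes that act with the proteasome were taken from lists made from general knowledge. Of 17 cofactors that do not carry PSM names, such as the ubiquitin receptor ADRM1, the deubiquitinases USP14 and UCHL5 and the maturation factor POMP, 15 were tested, with 7 above 0 and 8 below, a median log2 fold change of -0.012 and 0 at an unadjusted p under 0.05. Of 15 regulators of proteasome gene transcription 12 entered the fit, of which 9 lay above 0. Their median was 0.13, with 3 of the 12 (25.0%) higher and 0 lower at that level. Among all genes tested 8.08% were higher and 8.37% lower at that level. NFE2L1 itself averaged 184 ± 49.9 CPM with stretch medium and 137 ± 38.4 CPM with static medium (SD, n = 5 each), or 0.43 ± 0.19 on the log2 scale (adjusted p = 0.283). Its dimer partner MAFK was at 0.54 ± 0.24 (adjusted p = 0.28), and SYVN1, the ubiquitin ligase of the endoplasmic reticulum that keeps NFE2L1 low, at 0.35 ± 0.16 (adjusted p = 0.286).

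VCP, the ATPase that pulls ubiquitinated proteins out of membranes and complexes and passes them to the proteasome, averaged 1709 ± 277 CPM with stretch medium and 1221 ± 175 CPM with static medium, and its groups did not overlap. Its log2 fold change was 0.49 ± 0.12 (adjusted p = 0.114). Among all genes tested, 3.72% had groups that did not overlap, 1.74% higher and 1.98% lower, and 16.4% had an unadjusted p under 0.05. Of the 9 genes of VCP and its cofactors that were tested, VCP was the only 1 (11.1%) at an unadjusted p under 0.05. Of the others 7 lay below 0, and the median of the 9 was -0.11. Of 5 ubiquitin and E1 enzyme genes tested, 2 (40.0%) had an unadjusted p under 0.05, 1 higher and 1 lower. UBA1, the main ubiquitin-activating enzyme, was at 0.33 ± 0.12 (adjusted p = 0.217). RPS27A, which encodes ubiquitin fused to a ribosomal protein, averaged 496 ± 37.1 CPM with stretch medium and 657 ± 120.5 CPM with static medium, or -0.41 ± 0.12 on the log2 scale, and its groups did not overlap (adjusted p = 0.136).

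Of 16 genes of class I antigen presentation, the pathway that displays peptides made by the proteasome, 10 were tested, with 8 below 0 and a median log2 fold change of -0.17. B2M, the light chain of class I molecules, averaged 1534 ± 123 CPM with stretch medium and 1925 ± 121 CPM with static medium, or -0.33 ± 0.091 on the log2 scale, and its groups did not overlap (adjusted p = 0.129). CANX, a chaperone of the heavy chain, was at -0.45 ± 0.18 (adjusted p = 0.243). Over the 5 lists 0 genes passed an adjusted p of 0.05, as did 0 of all 10968 genes tested, so this count does not set the lists apart.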

How the data were processed

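The 10 MRC5 libraries were made with an Ion AmpliSeq whole-transcriptome panel, per the labels' protocols, in which short targets of each gene are amplified together by PCR. The deposited file holds raw counts as whole numbers, 1 row per Ensembl identifier. Per the submitters' processing notes, fastp 0.20.1, Salmon 1.9 and hg38/GRCh38 were used. What each tool did, the annotation and the use of strand are not stated in these sources. Without molecular identifiers the counts are of amplified reads, so floors cover counting error only. Targets of different genes may amplify differently, and sums of CPM over genes, with the part of a gene in them, depend on that. Apart from these sums, levels are not compared between genes. Every gene in the table had a count above 0 in at least 5 libraries.

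Columns were matched to samples by the number in each title. Symbols came from the gene name table and GENCODE release 29, which found 13654 of 14054 names, and types and positions from GENCODE 29 (GRCh38). The letters of the rule also match PSMC3IP, PSME3IP1 and the pseudogene PSMC1P1, which are not subunit genes and were not counted. For 2 libraries of the same medium the chi-square of their counts, per degree of freedom, was 5.75 to 23.0, above sampling noise, and all 10 were kept apart.

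Counts were fitted in R 4.3.3 with edgeR 4.0.16 (filterByExpr with a minimum count of 10 and total of 15, TMM, quasi-likelihood test, Benjamini-Hochberg adjustment over 10968 genes, threshold 0.05). The common biological coefficient of variation was 17.5%. Log2 CPM use a prior count of 2. The test was checked on simulated data. Alternatives were other scalings, other filters, DESeq2 1.42.0, limma-voom (limma 3.58.1), a robust fit, a threshold of 0.1, each library left out, and, added after seeing the data, stretch 6 and static 7 left out together. The naming rule took 21 members, those with an unadjusted p under 0.05, the catalytic ones and those with the highest or lowest fold change of their class. The others given values by name, such as PSMA4, PSMD1, PSMG1, PSME1 and PSME4, fall outside it and were added after their values were seen. From the pathway lists, the genes given values by name had an unadjusted p under 0.05, except for ZFAND5. Of the cell type markers, VIM, CDH1, CD68 and TEK fall outside that rule and were named for their values. The family was chosen for description, and the lists were made, with earlier results of these data known, and no list was tested as a set.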

Additional observations from a re-analysis of the deposited data

Results flagged for a closer look

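In 7 of the 82 groups of 5 libraries examined (41 members, stretch and static), the highest library stood apart by Dixon's criterion. For normally spread values chance meets it at one end or the other in about 1 group in 20. The 82 groups share the same 10 libraries and are not independent, so the 7 were not set against that rate. PSMD9 reached 21.99 CPM in static 5, against 0.440 to 2.74 CPM in the other static libraries. PSMG2 reached 133.4 CPM in static 7, against 72.6 to 90.1 CPM in the others of its group, and without that library its log2 fold change was -0.53. PSME2 reached 51.8 CPM in stretch 8, against 27.8 to 34.6 CPM, and its log2 fold change was -0.62 without that library. PSMC3, an ATPase of the cap, reached 274.1 CPM in stretch 8, against 193 to 216 CPM. PSMA7, of the alpha ring, reached 614.6 CPM in static 9, against 433 to 482 CPM. PSMD5 reached 9.91 CPM in stretch 6, against 7.44 to 8.15 CPM, and 10.6 CPM in static 5, against 8.25 to 8.93 CPM.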

How the results depend on the processing

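No paired analysis was run, because the groups share no replicate number. Static libraries carry odd and stretch libraries even numbers, and neighbouring numbers were not treated as pairs. For the 21 members taken by the naming rule, each log2 fold change kept its direction and its side of the threshold in every alternative that tested them and in every fit without a library, with 3 exceptions: DESeq2 called PSMG2 (adjusted p = 0.0186), edgeR called it without stretch 4 (0.0480), and PSMB1 was at -0.066 with stretch 6 and static 7 both left out. Over all genes, 275 passed in DESeq2, 1 in limma-voom, 61 at a threshold of 0.1, 2 with stretch 6 and static 7 left out, and 0 to 39 without a library (39 without stretch 4, 2 without stretch 6, 1 without stretch 10). Called members numbered 1 in DESeq2 and 0 to 1 without a library. Members higher at an unadjusted p under 0.05 numbered 2 by upper quartile scaling, 2 without stretch 6 and static 7, and 1 to 6 without a library, and members lower 2 without both libraries and 2 to 5 without a library. The median log2 fold change of the members was -0.021 without both libraries and -0.018 to 0.036 without a library. Of the other members, 10 had a log2 fold change that crossed 0 when 1 library was left out (PSMA4 -0.25 to 0.067, PSMG1 -0.020 to 0.19, PSMD1 -0.052 to 0.11, and PSMA7, PSMC3, PSMD2, PSMD4, PSMD7, PSMD8 and PSMD12). The causes were not tested. Under every scaling 22 members lay above 0 and 19 below.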

Other observations

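PSMC1P1, a processed pseudogene of the cap ATPase gene PSMC1, averaged 190.2 ± 26.6 CPM with stretch medium and 204 ± 19.5 CPM with static medium (SD, n = 5 each), with a log2 fold change of -0.097 ± 0.11. As PSMC1 was not analysed here, how reads were divided between the copies is not known. PSMC3IP, a factor of meiotic recombination, had a log2 fold change of 0.079 ± 0.21, and PSME3IP1, a partner of PSME3, one of -0.22 ± 0.13 (adjusted p = 0.421). ZFAND5, a proteasome-binding protein known to stimulate degradation, had groups that did not overlap, as had 3.72% of all genes tested. It averaged 605 ± 42.8 CPM with stretch medium and 688 ± 25.2 CPM with static medium, with an adjusted p of 0.311. ZFAND5 was picked after its values were seen.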
